A study of Rattus norvegicus with 58 samples.

Results

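The 150 genes described here were raised in rat synovium by arthritis and then fell most by day 5 of sampling. They were chosen on the deposited log2 values, which are log2 of reads per million-read unit of library depth. A gene qualified where its mean in untreated arthritic rats was at least 3 and at least 2 above its mean in naive rats, and 473 of 16879 genes with an identifier did. Qualifying genes were ranked by the change from untreated arthritis to day 5, taken as the mean of the saline and RTD-1 groups of day 5, and the 150 lowest were kept. The working name of the set held that these genes resolve by day 5. The values go against that name, because the median member still kept 57.2% of its log2 rise on day 5. The set is therefore called the falling genes below.

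Synovium is the lining tissue of the joint, and in pristane-induced arthritis (PIA) an injected hydrocarbon oil leads to an immune attack in which it thickens and takes up leukocytes. Its RNA then changes both because new cells enter and because resident fibroblasts and macrophages switch on inflammatory, matrix-degrading and growth programmes. RTD-1 is rhesus theta-defensin 1, a cyclic peptide of the innate immune system that dampens the release of inflammatory cytokines.

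Arthritic rats were female DA/OlaHsd animals, 6 to 8 weeks old at induction, and the labels name no transgene or deletion in any group. They had received 250 µl of pristane, and sampling time began the day after both rear limbs reached a disease score of at least 3. They were sampled untreated (4 libraries, called PIA), or after saline for 1 day (4), 3 days (8) or 5 days (8), or after RTD-1 at 5 mg per kg under the skin for 1 day (4), 3 days (8) or 5 days (8). Rats without arthritis were naive (4), or healthy with RTD-1 at 5 mg per kg over 3 days (5) or 5 days (5). None of the 58 libraries came from healthy rats given saline. The labels do not tie libraries to animals, so each p-value reflects library-to-library spread, which may be technical. Reads in genes numbered 464693 to 7716834 a library. After 3 days of RTD-1, replicates 6 and 8 were the shallowest, with 464693 and 935255 reads. A library from each saline group was deeper than all other arthritic libraries (day 1 replicate 2, day 3 replicate 4, day 5 replicate 1).

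The file holds Ensembl-style identifiers with no names, and 0 of them matched the reference table used here. No role is therefore given for any member, lists of cell markers and pathways were not analysed here, and no promoter is shown. The tissue label and the part of other cell types were not tested. In bulk tissue, fewer cells of a type and less RNA per cell cannot be told apart.

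The values that chose the genes are given first, with no test. The median member stood at 0.85 on the deposited log2 scale in naive synovium, 4.23 in PIA and 2.63 on day 5. Its rise in PIA was 3.41 log2, or 10.6-fold, with a range over members from 2.01 to 7.64. Its fall by day 5 was 1.40 log2, or 2.65-fold, and the largest fall was 2.54. The last 2 members in the ranking changed by -1.157 and -1.156, and the next 2 genes in the ranking, which were not taken, by -1.148 and -1.146. The choice thus cuts a continuous series of values and not a gap. The fall was much the same size in both arms, with a median change of -1.40 under saline and -1.44 under RTD-1.

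Most members stayed well above their naive level. On day 5 they kept between 10.3% and 80.6% of their rise, and the middle 50% of members kept 47.9% to 64.5%. The median was 57.5% under saline and 57.1% under RTD-1. Only 44 members kept under 50%, 28 did so in both arms, and 2 kept under 25%. The day 5 mean was inside the range of the naive libraries for 4 members. In 49 members all 16 day 5 libraries lay above the highest naive library, while in 28 members all 16 lay below the lowest PIA library. These libraries chose the genes, and the same counts were not made for other genes, so they only describe the members. The 323 other genes that qualified kept a median of 72.9%, with a median change of -0.73 and a fall in 285 of them.

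Levels are given from here on as normalized reads, which are reads after scaling every library to the median depth, and differences as log2(normalized reads + 1), which understates changes of low values. Members were moderately abundant in PIA, with means from 48.0 to 20089 and a median of 122.6 normalized reads. Of the 150, 87 reached 100 normalized reads and 7 reached 1000. Their naive means ran from 0.925 to 1642, with a median of 11.5, and 19 members had 0 reads in at least 1 naive library.

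The mean log2 level of all 150 genes in each library shows how the set moved through the study. Setting the naive mean at 0% and the PIA mean at 100%, PIA libraries lay between 82.1% and 110.2%. On day 1 the level was 88.7% ± 7.30 under saline and 100.5% ± 5.10 under RTD-1 (SD, n = 4 each). On day 3 it was 67.6% ± 10 under saline and 79.7% ± 11.6 under RTD-1 (SD, n = 8 each). On day 5 it was 58.2% ± 17.5 under saline and 56.8% ± 19.4 under RTD-1 (SD, n = 8 each). Healthy rats given RTD-1 lay near the naive level, with 8.50% ± 4.38 after 3 days (SD, n = 5) and 9.14% ± 3.75 after 5 days (SD, n = 5). No arthritic library reached the healthy range, and the lowest arthritic library stood at 24.9%. On the log2 scale the members' mean level was 3.77 in naive rats and 7.19 in PIA. On day 5 it was 5.76 under saline and 5.71 under RTD-1. The median of all genes tested also moved, with group means of 5.66 in naive rats and 5.96 in PIA. On day 5 these were 5.74 under saline and 5.69 under RTD-1. The part of such library-wide shifts in the member level was not tested.

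**Figure D1:**
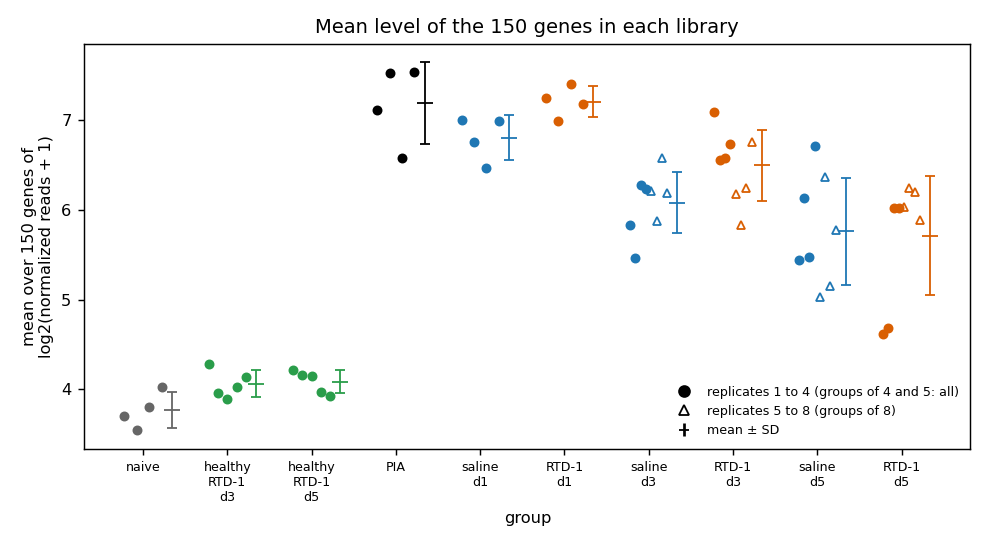
Mean over the 150 genes of log2(normalized reads + 1) (vertical axis) in each of 58 libraries, by group (horizontal axis; d is the day). Filled circles are replicates 1 to 4, or all replicates in groups of 4 and 5, open triangles are replicates 5 to 8, and bars are mean ± SD. Levels step down from day 1 to day 5, and 2 libraries of the 5-day RTD-1 group lie well below the other 6.

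The order over time was also looked at gene by gene. From PIA to day 1 the median change was -0.19 log2, with 106 members lower and 44 at or above their PIA level. From day 1 to day 3 it was -0.68, with all members but 1 lower, and from day 3 to day 5 it was -0.54, with 147 lower. Means of both arms fell at every step from PIA through day 5 in 103 members, and from day 1 through day 5 in 146. Within an arm, the order from day 1 through day 5 held for 107 members under saline and 148 under RTD-1. The median member had gone 60.6% of its way from PIA to day 5 by day 3, and the middle 50% of members 55.0% to 66.9%. Steps that start from PIA or end on day 5 share libraries with the choice of genes and have no test.

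**Figure D2:**
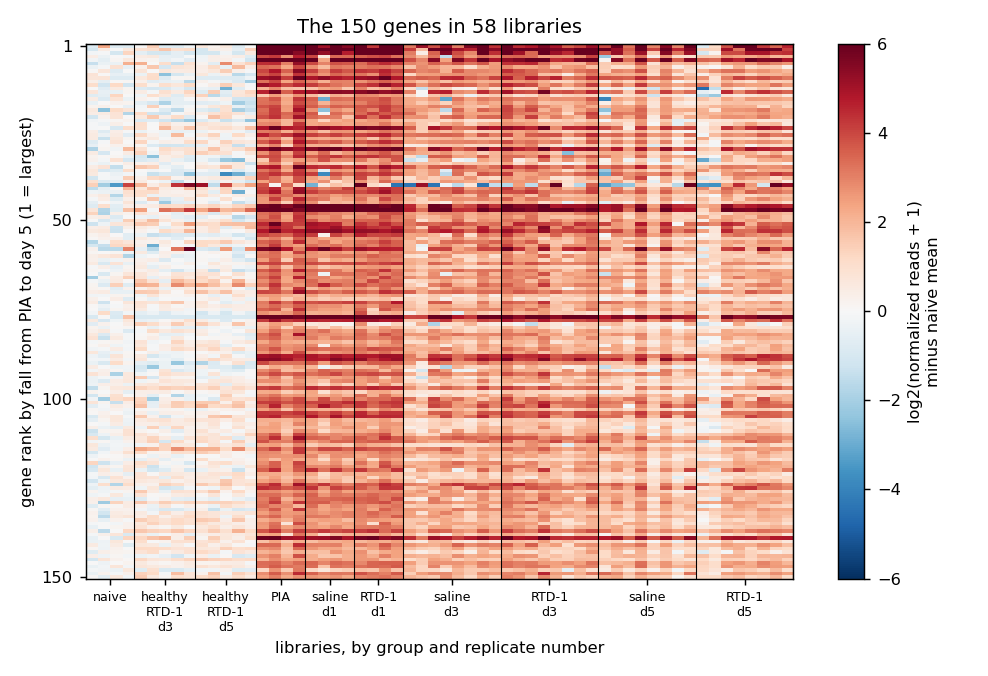
The 150 genes (rows, ordered by their fall from PIA to day 5, largest at the top) in 58 libraries (columns, by group and replicate), coloured by log2(normalized reads + 1) minus the naive mean of that gene. Red is above naive. The red fades from PIA to day 5 across most rows, and the row at rank 40 varies from library to library in every group.

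Day 1 and day 3 libraries played no part in choosing the genes and allow a test of whether the set was already falling. Averaged over both arms, 34 of the 150 genes were lower on day 3 than on day 1 and 0 were higher (limma, Benjamini-Hochberg adjusted p under 0.05 over 13062 genes). Among all genes tested 2.61% were lower by the same rule, and among the other 323 qualifying genes 13.0% were. The median change was -0.68 for the 150 genes, -0.42 for the other qualifying genes and -0.10 for all genes. At an unadjusted p under 0.05, 100 of the 150 genes were lower, where 15.8% of all genes were, and 48.9% of the other qualifying genes differed in either direction. The 34 genes fell by 1.5-fold to 3.11-fold, with a median of 1.81-fold. Their estimates were negative in each arm taken alone, which calling them on the mean of both arms favours. All day 1 libraries lay above all day 3 libraries for 0 of the 150 genes and for 0.0153% of all genes.

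The count of 34 moved strongly with single libraries. It was 6 without saline replicate 1 of day 1, 8 without saline replicate 3 and 18 without saline replicate 4 of that day. It was 11, 9 and 12 without RTD-1 replicates 2, 3 and 4 of day 1, and 19 and 15 without saline replicates 2 and 6 of day 3. The share of all genes that were lower moved too, between 0.368% and 4.17% over single libraries left out. With replicates 1 to 4 only the count was 0 and 0% of all genes were lower. There 73 members had an unadjusted p under 0.05, where 13.9% of all genes did. The median change was far steadier, between -0.75 and -0.64 over all single libraries left out.

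The genes that passed were mostly the more abundant members. Of the 87 members with at least 100 normalized reads in PIA, 28 passed the test, and of the 63 below that level 6 did. The share of all genes at each of these levels was not worked out. Among all genes the share that were lower was 2.61%, and 4.19% with a filter of 50 normalized reads, so the split may not be particular to the members. The median change was -0.70 in the first set and -0.59 in the second, and the median standard errors were 0.257 and 0.291.

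Within a single arm no member passed in the main fit, though some did in each arm with other settings. Under saline the median change from day 1 to day 3 was -0.69 with 134 of 150 estimates negative, and 0 members passed where 0.0612% of all genes were lower. At an unadjusted p under 0.05 there were 65, where 6.73% of all genes were lower. With TMM factors 10 members passed where 1.19% of all genes were lower, and with quantile normalization 10 where 0.934% were. Without saline replicates 3, 4 and 7 of day 3, 5, 9 and 2 members passed. The share of all genes that were lower ran from 0% to 0.414% over single libraries left out. Under RTD-1 the median change was -0.69 with all estimates but 1 negative, and 0 members passed where 0% of all genes were lower. At an unadjusted p under 0.05 there were 56, where 11% of all genes were lower. With replicates 1 to 4 only, 8 members and 5.58% of all genes had an unadjusted p under 0.05 in this arm. With TMM factors 30 members and 9.77% of all genes did, and with quantile normalization 27 members and 9.26%. With only the compared groups fitted, 1 member passed under RTD-1, where 0.00857% of all genes were lower. In that fit 100 members and 9.1% of all genes had an unadjusted p under 0.05. The median of all genes shifted by 0.0041 under saline and -0.20 under RTD-1, so the median member lay -0.69 and -0.49 from the median gene of its arm. The difference between the arms in this change was tested directly and called 0 members and 0.00766% of all genes. At an unadjusted p under 0.05 there were 2 members and 5.32% of all genes. Its median was -0.03 and became 0.14 with TMM factors, so it has no settled sign.

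ENSRNOG00000020845 had the lowest p among the genes that fell. It stood at 42.7, 45.2, 69.8 and 43.7 normalized reads in the naive libraries and at 430.6, 680.9, 345.4 and 396.1 in PIA. Day 1 libraries read 561.1, 501.4, 492.7 and 433.8 under saline and 514.5, 747.8, 692.6 and 644.9 under RTD-1. On day 3 it ranged from 140.3 to 440.1 with a median of 228.7 under saline, and from 181.7 to 591.8 with a median of 272.0 under RTD-1. Only 1 saline library and 2 RTD-1 libraries of day 3 reached the day 1 range of both arms, so the days overlapped little. The change was -1.08 log2 (SE 0.214, limma adjusted p = 0.00856). On day 5 the medians were 197.6 under saline and 165.7 under RTD-1, still above every naive library.

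ENSRNOG00000008106 gave the second lowest p. It stood at 22.2, 36.5, 52.9 and 26.0 normalized reads in naive synovium and at 153.3, 146.1, 130.4 and 190.9 in PIA. Day 1 libraries read 166.9, 110.7, 177.2 and 123.5 under saline and 132.4, 144.7, 187.4 and 120.5 under RTD-1. On day 3 it ranged from 44.8 to 95.03 with a median of 76.6 under saline, where every library lay below the day 1 range. Under RTD-1 it ranged from 63.9 to 132.2 with a median of 94.2 and partly overlapped day 1. The change was -0.85 log2 (SE 0.176, limma adjusted p = 0.0103). Both of these genes missed the threshold with replicates 1 to 4 only, at changes of -0.76 each.

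The 2 genes with the largest fall by day 5 among those with at least 100 normalized reads in PIA were far more variable. ENSRNOG00000010278 had 0 reads in 3 of 4 naive libraries and 7.69 normalized reads in the fourth. It stood at 316.8, 141.2, 129.3 and 163.1 in PIA. Day 1 libraries already spread widely, at 138.6, 55.1, 169.0 and 75.3 under saline and 283.8, 32.0, 135.3 and 178.8 under RTD-1. On day 3 it ranged from 13.4 to 130.1 under saline and from 20.2 to 116.1 under RTD-1, with medians of 46.8 and 48.9. Day 5 libraries spread from 12.5 to 261.9 under saline, the highest of them above 3 of the 4 PIA libraries, and from 0 to 151.8 under RTD-1. Its change from day 1 to day 3 was -1.30 log2 (SE 0.607, limma adjusted p = 0.211) and did not pass.

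ENSRNOG00000009342 was almost silent in naive rats, at 0, 1.92, 1.00 and 2.08 normalized reads, and reached 310.0, 332.0, 149.3 and 326.1 in PIA. It was no lower on day 1, at 279.1, 289.1, 317.8 and 360.0 under saline and 317.3, 509.7, 433.0 and 404.0 under RTD-1. On day 3 saline libraries spread from 6.53 to 323.1 around a median of 77.03 and RTD-1 libraries from 94.2 to 387.6 around 188.3. Day 5 medians were 88.2 under saline and 51.3 under RTD-1, where replicates 1 and 2 were lowest at 4.27 and 4.21. The change from day 1 to day 3 was -1.60 log2 (SE 0.519, limma adjusted p = 0.0703), and it passed with a pseudocount of 8, with limma voom on recovered reads, without the 3 deeper saline libraries and without saline replicate 4 of day 3 alone.

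**Figure D3:**
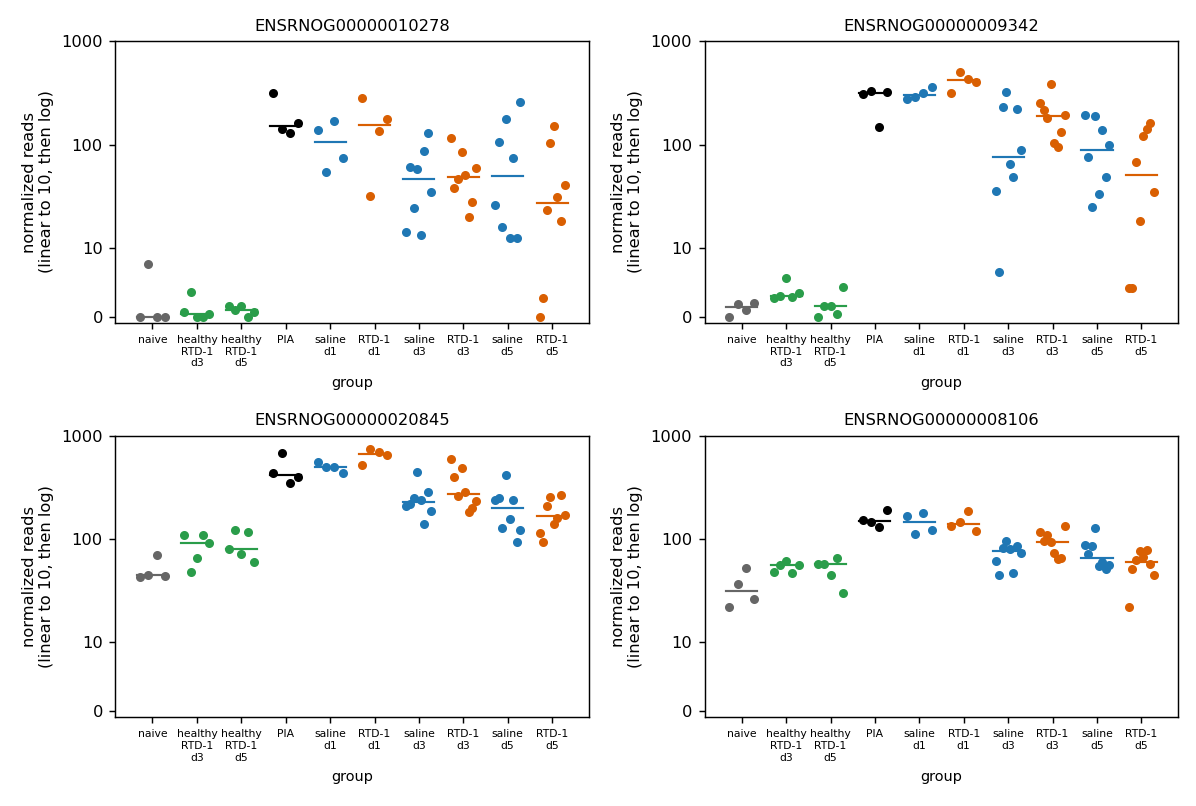
Normalized reads (vertical axis, linear to 10 and logarithmic above) of 4 genes in 58 libraries by group (horizontal axis). Points are libraries and lines are group medians. The upper 2 genes spread widely within the day 3 and day 5 groups, while the lower 2 fall between day 1 and day 3 with less spread.

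The change by day 5 and the change from day 1 to day 3 went together loosely within the 150 genes, and more closely across all qualifying genes. Across the 150 genes the 2 changes had a Spearman rho of 0.21 and a Pearson r of 0.28. Across all 473 qualifying genes the values were 0.61 and 0.68. These are correlations over genes measured in the same libraries, which are not independent replicates, and the range of day 5 changes among the 150 was narrowed by the choice.

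A second comparison that the choice did not use set arthritic against healthy rats, both given RTD-1 for 3 days. It asked how far the genes were still raised after 3 days of treatment. Of the 150 genes 145 were higher in the arthritic rats and 0 lower (limma, adjusted p under 0.05), where 16.8% of all genes were higher. Of the other 323 qualifying genes 311 were higher, so that a raised level was shared by nearly all induced genes. The median difference was 2.35 log2, or 5.11-fold, for the 150 genes, 1.90 for the other qualifying genes and -0.20 for all genes. In 121 of 150 genes all 8 arthritic libraries lay above all 5 healthy libraries, against 8.5% of all genes. The 2 groups also differed in depth, with 464693 to 3753844 reads in genes in the arthritic and 4437281 to 6183258 in the healthy libraries, and the part of depth in the difference was not tested. With TMM factors 147 genes were higher, where 50.9% of all genes were called in either direction and 27.6% were lower. With quantile normalization 148 were higher, where 50.9% were called and 25.1% were lower. In the main fit these shares of all genes were 47.4% and 30.6%, so the background moved as well.

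The other 5 genes did not pass, with estimates from -1.15 to 1.13, and 2 of the estimates were below 0. A single member was not separated between PIA and naive in the first place, the gene at rank 40. It ranged from 1.00 to 349.9 normalized reads in naive libraries, from 21.9 to 280.7 in PIA and from 5.28 to 3535 after 3 days of RTD-1. Its range within each of these groups was wider than the distance between their medians, and it is a member only through its mean log2 values.

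**Figure D4:**
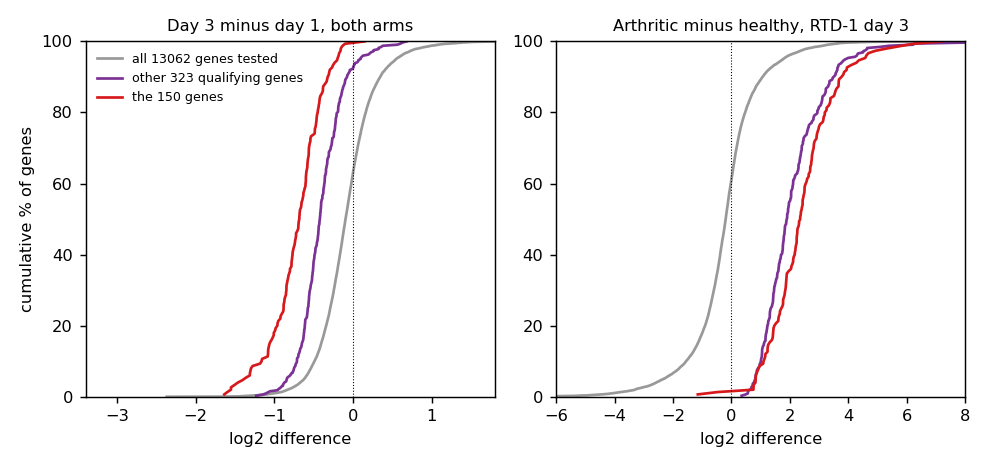
Cumulative percentage of genes (vertical axis) by log2 difference (horizontal axis) between day 3 and day 1 (left) and between arthritic and healthy RTD-1 rats of day 3 (right). Lines are the 150 genes, the other 323 qualifying genes and all 13062 genes tested. A few of the tested genes lie beyond the axes. The line of the 150 genes lies to the left of both others on the left, and close to the other qualifying genes on the right.

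Healthy rats given RTD-1 for 3 and 5 days were compared as well. Between day 5 and day 3 of RTD-1 the test called 0 members and 0% of all genes, with 2 members and 0.475% of all genes at an unadjusted p under 0.05 and a median difference of 0.02 log2.

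The central question of the study was what RTD-1 does to arthritic synovium relative to saline. For the falling genes no member passed on any day. On day 1 the median RTD-1 minus saline difference was 0.35 log2, with 134 of 150 estimates higher under RTD-1, while the median of all genes was 0.16. Limma called 0 members and 0% of all genes, and 6 members and 4.69% of all genes had an unadjusted p under 0.05. With TMM factors the median of all genes became 0.00029 and that of the members 0.19. On day 3 the median difference was 0.35 with 126 estimates higher, against -0.03 for all genes, and 25 members had an unadjusted p under 0.05, where 7.73% of all genes and 13.6% of the other qualifying genes did. Again 0 members were called, with a lowest limma adjusted p of 0.387, where 0.00766% of all genes were. On day 5 the median difference was -0.02 with 81 estimates lower, 1 member and 3.6% of all genes had an unadjusted p under 0.05, and 0 members and 0% of all genes were called. The median standard error of a member's difference was 0.45 log2 on day 1 and 0.32 on days 3 and 5.

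In this comparison the medians of the 2 sets of replicate numbers lay apart on days 3 and 5. No member passed a direct test of this in the main fit, and the 150 genes are not independent replicates. The labels do not say whether the numbers 1 to 4 and 5 to 8 mark separate experiments. On day 3 the median RTD-1 minus saline difference was 0.70 in replicates 1 to 4, with 146 of 150 estimates higher, and 0.06 in replicates 5 to 8, with 88 higher. On day 5 it was -0.56 in replicates 1 to 4, with 130 estimates lower, and 0.50 in replicates 5 to 8, with 142 higher. The difference of the arm effect between the sets was tested directly, in a comparison added after the data were seen. It had medians of -0.74 on day 3 and 1.05 on day 5, and called 0 members and 0% of all genes on both days. The lowest limma adjusted p of a member was 0.230 on day 3 and 0.125 on day 5. At an unadjusted p under 0.05 there were 30 members on day 3, where 12.8% of all genes and 9.91% of the other qualifying genes were, and 54 on day 5, where 18.3% and 39.3% were. With TMM factors these became 12 and 20 members, where 6.52% and 6.46% of all genes were. Without the 2 shallowest libraries, RTD-1 replicates 6 and 8 of day 3, the day 3 count was 19, where 5.39% of all genes were. Without RTD-1 replicate 4 of day 5, the number of members called on that day at an adjusted p under 0.05 rose from 0 to 11, where 3.19% of all genes were called. All genes had medians of -0.37 and 0.39 in the same comparison, and with TMM factors the members' medians were -0.41 and 0.65.

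**Figure D5:**
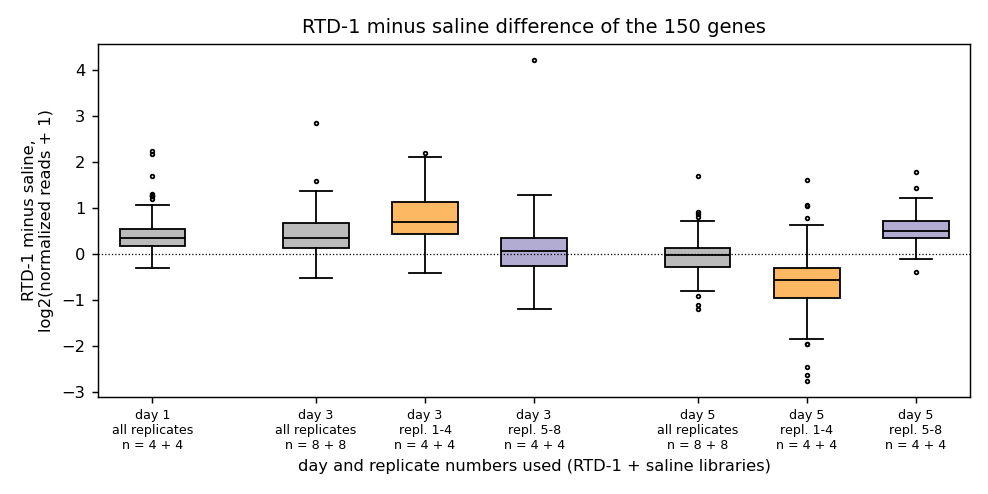
RTD-1 minus saline difference in log2(normalized reads + 1) (vertical axis) of the 150 genes by day and by the replicate numbers used (horizontal axis). Boxes span the middle 50% of genes with the median as a line, whiskers reach the last gene within 1.5 box lengths and points are genes beyond. On day 5 the box lies below 0 for replicates 1 to 4 and above 0 for replicates 5 to 8.

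Averaged over the arms, the median difference between replicates 5 to 8 and 1 to 4 on day 3 was -0.12. The group means behind this average moved in opposite directions. On the scale from naive to PIA, the saline member level was 63.8% ± 11.1 in replicates 1 to 4 and 71.4% ± 8.48 in replicates 5 to 8. Under RTD-1 it was 86.9% ± 7.25 and 72.5% ± 11.2 (SD, n = 4 each). The test of the average called 0 members, where 0.138% of all genes were called. The member count was 1 with TMM factors, with quantile normalization or without RTD-1 replicate 5 of day 3, and 13 members and 11.9% of all genes had an unadjusted p under 0.05.

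Day 5 libraries of the RTD-1 group fell into a low pair and a higher group. Replicates 1 and 2 of the 5-day RTD-1 group stood at 24.9% and 26.6% of the way from naive to PIA, and the other 6 between 62.0% and 72.3%. In replicates 1 and 2, 60 and 55 of the 150 genes lay at or below their highest naive library, against 3 to 11 genes in the other 6 libraries. The same 2 libraries held the lowest value of all 16 day 5 libraries for 78 genes. Saline libraries were spread more evenly, from 36.6% to 86.0%, with 1 to 44 genes at or below their highest naive library. Since day 5 chose the genes, these values are a description.

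How closely the genes varied together was compared with other induced genes. Over the 24 libraries of day 1 and day 3, deviations from the group means had a mean pairwise correlation of 0.289 among the 150 genes, 0.284 among the other qualifying genes and 0.212 among all genes. These values share the depth and scaling of each library and have no test.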

How the data were processed

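Per the labels' protocols, synovial total RNA was made into stranded libraries and sequenced as single 75-nt reads. The submitters' processing notes list HISAT and DESeq. Build, annotation and settings are not given in these sources. Values were deposited by the authors on a log2 scale. Every value turned out to be log2(reads / library factor), with factors of 1.71 to 17.5 megareads and 0 reads held as 0.9 read. Whole reads came out for 100% of values within a tolerance of 0.001. The row without an identifier held at most 0.0137% of reads and was left out.

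Groups and replicate numbers came from sample titles. Reads were scaled to the median factor, 5.75 megareads. The 13062 genes with 10 or more normalized reads in 4 or more libraries were tested, and all 150 members were among them. Each member had to be high in PIA to be chosen, and its passing the filter is no result. limma (3.58.1, R 4.3.3) with trend and robust moderation was applied to log2(normalized reads + 1), in 1 fit of 10 group means over 58 libraries, and p-values were adjusted by Benjamini-Hochberg over all genes (two-sided). The test had been set for linear normalized values, so the logarithm of the deposited log2 values was undone first. The script was tested on simulated data.

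Members and lists were chosen with earlier results of these data known. Genes are named by identifier, at most 2 with the largest fall at a PIA mean of at least 100 normalized reads and 2 with the lowest p between day 3 and day 1. Genes rising from day 1 to day 3, and others the rule names, are counted only. The cell marker, pathway and motif lists needed symbols and were not used here. Alternatives tried: TMM factors, quantile normalization, a pseudocount of 0.5 or 8, filtering at 50 normalized reads or not at all, a replicate block, replicate subsets, only the groups compared, leaving out the 3 deeper saline libraries and leaving out each library in turn. Later additions, made with the data in view, were voom on recovered reads, leaving out the 2 libraries under 1000000 reads, and the comparison of the arm difference between replicate sets.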

Additional observations from a re-analysis of the deposited data

Results flagged for a closer look

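In each group of 4 to 8 libraries, the highest and lowest library were checked for a gap to the others that is large against the range of the group, for the mean level of the 150 genes and for the 4 genes named. This gave 5 values in 50 groups, where chance gives about 1 in 20. None concerned the mean level of the 150 genes.

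ENSRNOG00000010278 stood at 7.69 normalized reads in naive replicate 2, where the other 3 naive libraries had 0. It also stood at 3.62 in replicate 2 of the healthy 3-day RTD-1 group, where the others reached at most 0.802. ENSRNOG00000009342 stood at 5.61 in replicate 3 of the healthy 3-day RTD-1 group, against 2.81 to 3.48 in the others. It stood at 149.3 in PIA replicate 3, against 310.0 to 332.0 in the other PIA libraries. ENSRNOG00000020845 stood at 69.8 in naive replicate 3, against 42.7 to 45.2 in the other naive libraries.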

How the results depend on the processing

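The direction of the medians from day 1 to day 3 and between arthritic and healthy rats held under all alternatives run. Counts of members below stand beside the share of all genes called the same way. Over both arms, members lower on day 3 than on day 1 (34, all genes 2.61%) numbered 52 (3.61%) with a pseudocount of 8 and 0 (0%) with replicates 1 to 4 only, and 6 to 43 (0.368% to 4.17%) with single libraries left out. Under saline (0, 0.0612%) they numbered 2 (0.0842%) with a pseudocount of 8, 2 (0.165%) with a filter of 50 normalized reads, 10 (1.19%) with TMM factors, 10 (0.934%) with quantile normalization, 4 (0.192%) without the 3 deeper saline libraries, 3 (0.238%) without the 2 shallowest libraries, 2 (0.0689%) with voom, and 0 to 9 (0% to 0.414%) with single libraries left out. Under RTD-1 (0) there was 1 (0.00857%) with only the compared groups fitted. The median arthritic minus healthy difference was 1.75 with a pseudocount of 8. The median RTD-1 minus saline difference on day 5 was -0.56 in replicates 1 to 4 and 0.50 in replicates 5 to 8. Genes called between the replicate sets on day 3 (0) numbered 1 (1.8%) with TMM factors and 1 (1.42%) with quantile normalization, and 0 to 1 with single libraries left out. Genes called for an arm effect that differs between the sets on day 5 (0) ran from 0 to 11 with single libraries left out. The causes were not tested.

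Same-numbered libraries of different groups had correlations of deviations between -0.37 and 0.28, so the numbers were not taken to pair samples. With the replicate block 8 members were lower on day 3 over both arms, and all genes lower went from 341 to 34 (0.26%). Under saline it called 1 member lower, with all genes lower at 8 (0.0612%) in both fits and all genes higher going from 15 to 86. No other member count fitted with it moved by over 1.5 times. Applied to other values, the choice of 150 kept 128 genes with TMM factors, 130 with quantile normalization, 119 with replicates 5 to 8 of day 5 only, and 114 to 147 with single libraries left out. Libraries under 1000000 reads limit what can be seen in genes of few reads.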
